A study of Rattus norvegicus with 14 samples.

Results

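Genes of the early secretory pathway and of the Rab family were compared in the dentate gyrus of rats trained with or without the cues needed to learn a new place. Members were chosen by gene symbol. They were the Rab GTPases other than Rab3, the Arf GTPases, the COPI and COPII coats, the Sec61 translocon and its partners, signal peptidase, the signal recognition particle and the p24 cargo receptors. Of the 15866 probe sets on the array other than controls, 137 carried such a symbol, and they stood for 102 genes. The symbols Srpk1, Srpk2, Srpx, Srpx2, Ssrp1, Sec14l1, Sec14l2 and Sec14l3 share only the first letters, and their 8 genes (10 probe sets) act outside the pathway. The rule could be read to take in the Rab effectors Rab11fip3, Rab11fip4 and Rab11fip5 and Rab5if, whose names run on after the number. They were left out of the members, while Rab11fip3 and Rab11fip5 were counted in the list of other pathway genes described below.

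The tissue came from male Long-Evans rats, 3 to 4 months old, all of which had been trained in a standard water maze 2 to 3 weeks earlier. The 7 learning rats then had a session of 8 trials at a different site with spatial cues in view and a visible platform that kept its place. The 7 control rats had a session of the same length in which the visible platform moved and the surroundings held no informative cues. All rats swam a 90 s probe trial 1 h later and were killed straight afterwards. The comparison asks which transcripts differ after a session that allowed a new place to be learned. Each rat gave 1 array of total RNA from dissected dentate gyrus, a mixture of cell types in which fewer cells of a type and less RNA per cell cannot be told apart.

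A protein bound for the cell surface, for a synapse or for an endosome is first recognised by the signal recognition particle, threaded through the Sec61 channel into the endoplasmic reticulum (ER) and freed of its signal peptide. COPII coats then carry it towards the Golgi, COPI coats, which are recruited by Arf GTPases, bring retrieved proteins back, and p24 proteins select cargo in both. Rab GTPases mark each membrane along the way and beyond it, in endosomes, lysosomes and exocytic vesicles. In neurons the same machinery supplies receptors and channels to dendrites and recycles them.

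No member passed the adjusted threshold, and the members as a whole differed between the groups at an unadjusted p below 0.05 about as often as all tested probe sets. The threshold was a Benjamini-Hochberg adjusted p of 0.05 in limma, a linear model fitted to the 9387 probe sets whose mean reached 4 on the log2 scale, where 1 unit is a doubling of signal. Of the 137 members, 116 passed that filter, for 89 genes. The share called over all tested probe sets was 0.0% (0 of 9387), and it was 0 of 116 among the members, whose lowest adjusted p in limma was 0.153. At an unadjusted p below 0.05 there were 14 members, or 12.1%, against 13.1% of all tested probe sets. By direction, 7 members were higher in learning rats, against a background of 6.43%, and 7 were lower, against 6.67%. The share of members is thus near the background, and the values below describe single genes. The tested members were split into 59 with a positive and 57 with a negative difference, and all tested probe sets into 4849 and 4538. Their median difference was 0.001 log2 units against 0.005 for all tested probe sets, and their median absolute difference was 0.09 against 0.08. Differences of at least 0.25 log2 units were seen for 7 members (6.03%), against 8.17% of all tested probe sets. Every learning array lay above every control array for 2 members, Spcs3 and Copa, where the background share was 0.17%, and every learning array lay below every control array for 0, where it was 0.234%.

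**Figure D1:**
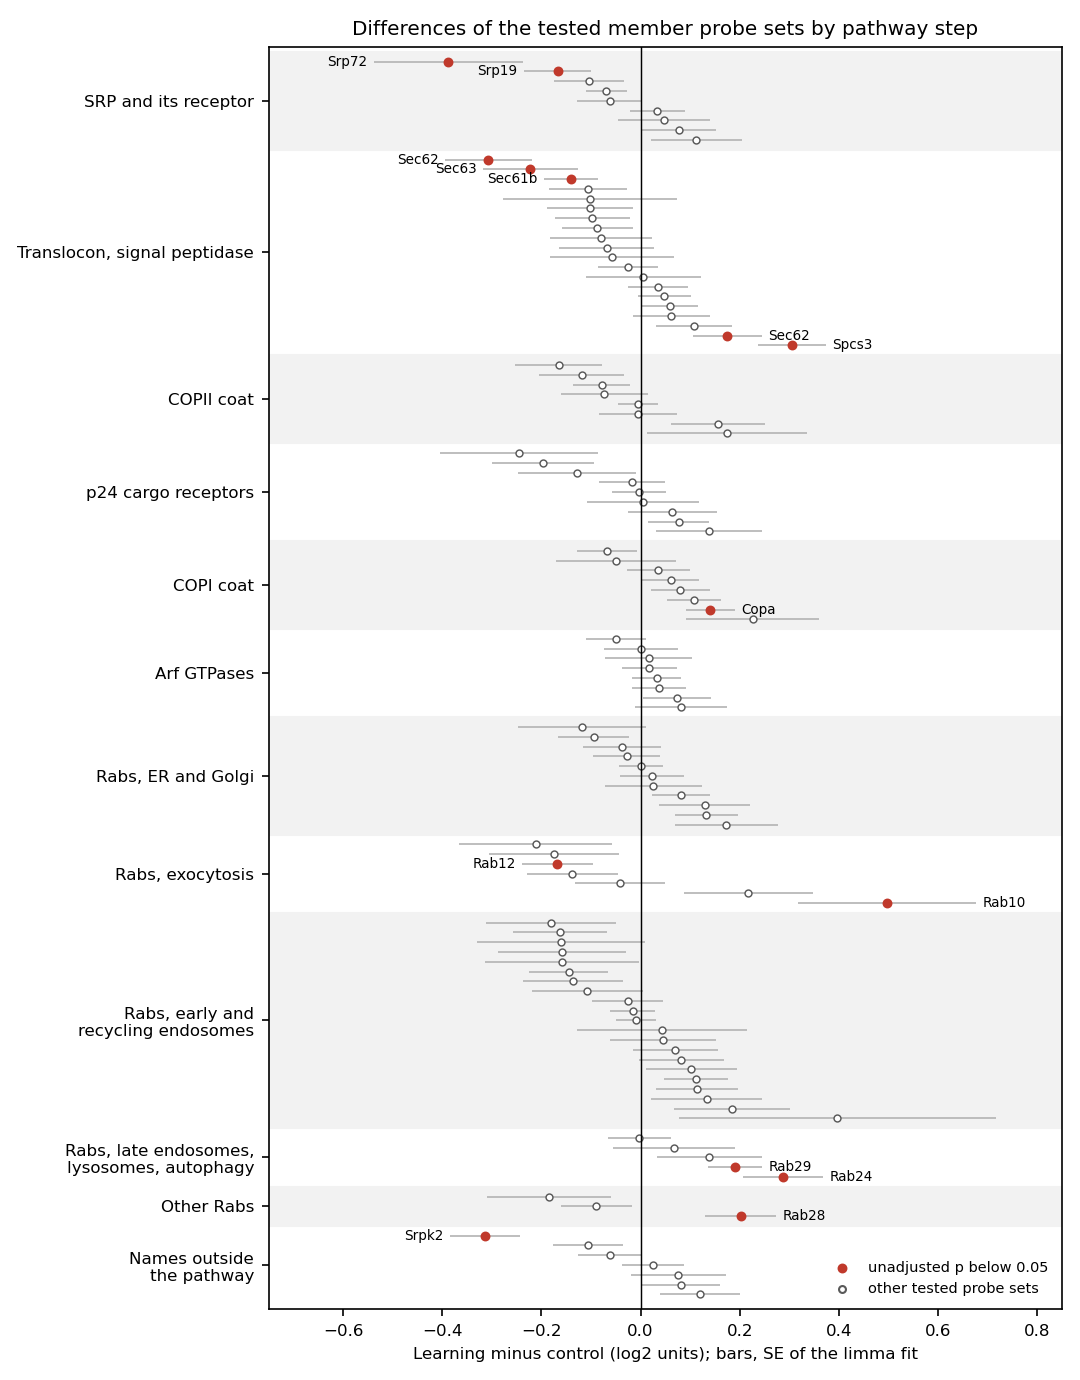
Learning minus control in log2 units (horizontal axis) for each of the 116 tested probe sets, in rows grouped by step from ER targeting at the top to names outside the pathway at the bottom; bars are standard errors of the limma fit. The 14 filled points have an unadjusted p below 0.05 and lie on both sides of 0, from -0.39 for Srp72 to 0.50 for Rab10.

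The other 21 member probe sets had means of 0.39 to 3.92, below the filter, and were not tested. For 13 genes no probe set was tested. Among them were Rab27a and Rab27b, which act in exocytosis of lysosome-related organelles and dense-core vesicles, Rab25, known from epithelia, Rab38, known from melanosomes, and Rab20. The others were Rab39a, Tmed1, Copz2, Sec16b, Sec22a, Sec14l3, Srpx and Srpx2. A low value does not show that a transcript was absent.

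Promoter sequence was looked at as a feature that the choice of members did not use, and 90 of the 102 genes had a promoter in the RefSeq table for the rat assembly GRCr8. The 250 bases before each annotated start were searched on both strands. TGACGTGG, the element known as the target of the ER stress factors ATF6 and XBP1, was found in 4 of the 90 (4.44%), against 0.552% of 19005 promoters of protein-coding genes and 0.550% of all 27457 promoters. CCACG, which is contained in that element when read on the other strand, was in 54.4% of the member promoters and 31.3% of the protein-coding ones, and CCAAT in 32.2% and 35.5%. TGACG, which TGACGTGG also contains, was in 31.1% and 21.1%, and TGACGTCA in 2.22% and 2.03%. The composite ER stress response element, CCAAT and CCACG at a fixed spacing, was in 0 of the 90 and in 0.0947% of protein-coding promoters. Members' promoters were richer in G and C, with a mean of 61.0% against 54.4% for protein-coding genes, and the part of base composition in these shares was not tested. Shown are the 4 promoters with TGACGTGG, followed by those of Spcs3 and Copa, the genes whose groups did not overlap. Each is written in the direction of the gene, and capitals mark TGACGTGG, CCAAT or CCACG on either strand. The coordinates are those of the 250 bases.
Arf1, chr10:44513995-44514244, minus strand: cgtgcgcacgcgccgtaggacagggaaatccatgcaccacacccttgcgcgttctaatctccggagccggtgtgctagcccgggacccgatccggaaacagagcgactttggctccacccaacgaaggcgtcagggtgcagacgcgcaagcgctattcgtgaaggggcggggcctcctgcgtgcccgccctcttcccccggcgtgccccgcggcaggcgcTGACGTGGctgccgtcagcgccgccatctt
Arf4, chr16:1903186-1903435, plus strand: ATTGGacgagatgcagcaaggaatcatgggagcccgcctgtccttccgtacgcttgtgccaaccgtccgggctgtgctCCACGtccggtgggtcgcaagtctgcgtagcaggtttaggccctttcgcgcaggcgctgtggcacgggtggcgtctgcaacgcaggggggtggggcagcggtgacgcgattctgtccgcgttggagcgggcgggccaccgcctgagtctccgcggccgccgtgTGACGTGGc
Copb2, chr8:108040437-108040686, plus strand: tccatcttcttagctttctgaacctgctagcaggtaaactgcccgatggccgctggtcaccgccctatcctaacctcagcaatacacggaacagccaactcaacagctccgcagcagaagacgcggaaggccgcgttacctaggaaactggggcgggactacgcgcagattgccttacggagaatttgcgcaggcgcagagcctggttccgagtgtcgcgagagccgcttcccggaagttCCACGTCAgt
Srp19, chr18:26205638-26205887, plus strand: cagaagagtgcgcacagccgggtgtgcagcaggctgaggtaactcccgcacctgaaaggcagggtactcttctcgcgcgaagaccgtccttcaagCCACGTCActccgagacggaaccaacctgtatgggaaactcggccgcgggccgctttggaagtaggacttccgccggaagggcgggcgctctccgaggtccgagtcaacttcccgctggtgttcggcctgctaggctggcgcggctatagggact
Spcs3, chr16:44038171-44038420, plus strand: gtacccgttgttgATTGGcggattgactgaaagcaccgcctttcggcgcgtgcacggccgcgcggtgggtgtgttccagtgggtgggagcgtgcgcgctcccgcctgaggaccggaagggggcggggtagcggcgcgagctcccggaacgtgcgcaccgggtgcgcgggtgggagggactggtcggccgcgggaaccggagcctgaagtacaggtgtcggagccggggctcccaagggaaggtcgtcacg
Copa, chr13:87078618-87078867, plus strand: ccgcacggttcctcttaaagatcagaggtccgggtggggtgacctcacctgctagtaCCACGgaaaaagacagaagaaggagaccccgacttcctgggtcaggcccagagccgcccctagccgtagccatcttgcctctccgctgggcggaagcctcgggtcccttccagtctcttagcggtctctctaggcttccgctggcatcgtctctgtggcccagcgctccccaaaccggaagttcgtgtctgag
The 4 genes that hold TGACGTGG did not share a direction. Arf1, Arf4 and Copb2 differed by 0.07, 0.02 and 0.06 and Srp19 by -0.17. A match is a description of the sequence and not evidence of binding.

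The signal recognition particle is a ribonucleoprotein that binds signal peptides as they leave the ribosome. Of its 9 tested probe sets (with those of its receptor), 4 had a positive and 5 a negative difference (median -0.06). An unadjusted p below 0.05 was seen for 2 (22.2%, against 13.1% of all tested probe sets). Both were lower, where the background for that direction was 6.67%. The difference between these shares was not tested. Srp72, one of the large subunits, had a lowest value of 7.10, a median of 7.38 and a highest value of 7.76 in learning rats, against 7.15, 7.92 and 8.08 in control rats. The groups overlapped because control replicates 6 and 7 were low at 7.15 and 7.57, while the other control arrays lay above all learning arrays. The difference on this probe set was -0.39 ± 0.15 (SE; adjusted p = 0.306 in limma), whereas its other probe sets differed by 0.11 ± 0.09 and -0.06 ± 0.07 (SE). Srp19, which binds the RNA of the particle, ranged from 9.49 to 9.96 with a median of 9.76 in learning rats, against 9.78 to 10.06 with a median of 9.93 in control rats. Its difference was -0.17 ± 0.07 (SE; adjusted p = 0.329 in limma). Srp14, which with Srp9 forms the domain that pauses translation, averaged 10.16 ± 0.06 in learning rats and 10.23 ± 0.03 in control rats (SD, n = 7 each), and the 95% confidence interval of its difference of -0.07 ran from -0.16 to 0.02. Srp9 differed by -0.10 and the large subunit Srp68 by 0.03. The receptor subunits Srpra and Srprb differed by 0.05 and 0.08.

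Translocation into the ER and removal of the signal peptide had 20 tested probe sets, of which 5 had an unadjusted p below 0.05 (25%, against 13.1% of all tested probe sets). The difference between these shares was not tested. The learning rats had the higher mean for 8 of the 20 and the lower mean for 12 (median difference -0.06). Spcs3, a subunit of the signal peptidase complex, ranged from 9.85 to 10.08 with a median of 9.92 in learning rats, against 9.42 to 9.79 with a median of 9.72 in control rats. All 7 learning arrays lay above all 7 control arrays. The difference was 0.31 ± 0.07 (SE; a ratio of 1.24; adjusted p = 0.153 in limma; 95% confidence interval, 0.16 to 0.45). Of the other peptidase subunits, Spcs1 averaged 10.80 ± 0.09 in learning rats and 10.74 ± 0.10 in control rats (SD, n = 7 each), with an interval of the difference from -0.06 to 0.18. Spcs2 differed by -0.09, and the catalytic subunits Sec11a and Sec11c differed by -0.03 and -0.11.

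Around the Sec61 channel the probe sets went in both directions. Sec61b, the beta subunit of the channel, ranged from 8.71 to 8.996 with a median of 8.81 in learning rats, against 8.84 to 9.13 with a median of 8.93 in control rats, a difference of -0.14 ± 0.05 (SE; adjusted p = 0.311 in limma). Sec61g, the gamma subunit, differed by -0.08, and the alternative pore subunit Sec61a2 by 0.05. The probe sets of the main pore subunit Sec61a1 had opposite signs, 0.06 and -0.10. Sec63, a membrane J-domain protein that opens the channel for proteins translocated after translation, ranged from 6.61 to 7.32 with a median of 6.94 in learning rats, against 7.02 to 7.38 with a median of 7.10 in control rats. Learning replicates 1 and 7 lay within the range of the control rats and the other learning arrays below it. The difference was -0.22 ± 0.10 (SE; adjusted p = 0.347 in limma), and the second Sec63 probe set differed by -0.10. The translocon-associated proteins, which sit beside the channel, had differences of 0.04 for Ssr1, -0.06 for Ssr2 and -0.07 for Ssr4. The probe sets of Ssr3 gave 0.11, 0.0058 and -0.10.

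Sec62, the partner of Sec63, was the one member with probe sets of unadjusted p below 0.05 in both directions. On the first probe set the learning rats ranged from 9.48 to 9.94 with a median of 9.68, against 9.68 to 10.28 with a median of 9.96 in control rats. The difference was -0.31 ± 0.09 (SE; adjusted p = 0.212 in limma). On the second the learning rats ranged from 9.92 to 10.32 with a median of 10.07, against 9.79 to 10.08 with a median of 9.94 in control rats. Here the difference was 0.18 ± 0.07 (SE; adjusted p = 0.318 in limma). Within each array, the log2 value of the second probe set minus that of the first averaged 0.40 ± 0.15 in learning rats and -0.09 ± 0.26 in control rats (SD, n = 7 each), a difference of 0.48 between the groups. These were chosen after their values were seen, so no test is given. No direction for the gene as a whole follows from a pair of probe sets that disagree.

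**Figure D2:**
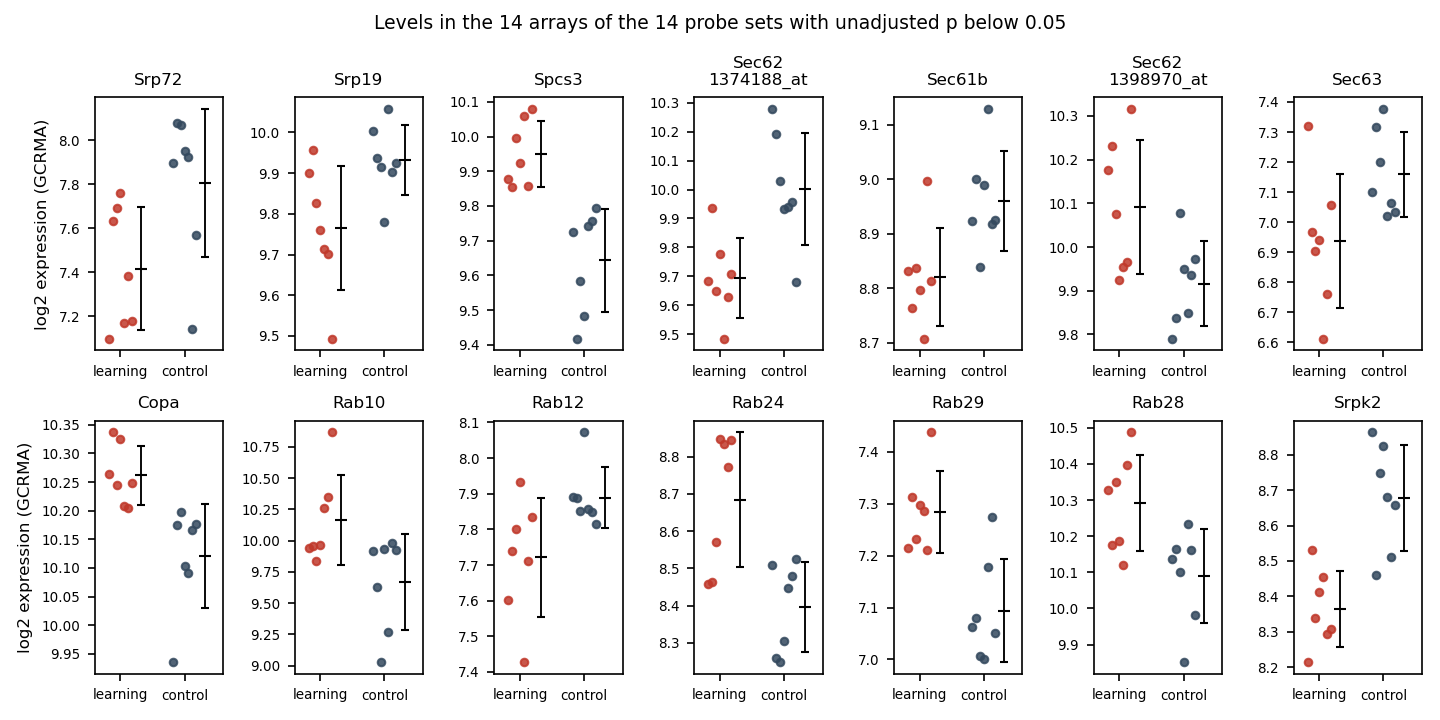
Log2 expression (vertical axes, a separate scale for each panel) in the 7 learning arrays (left in each panel) and 7 control arrays (right) for the 14 probe sets with an unadjusted p below 0.05, in pathway order; bars are mean and SD. Only in the panels of Spcs3 and Copa do the points of the groups not overlap, and Sec62 has a panel for each of its probe sets, with opposite directions.

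The COPII coat, which forms vesicles at ER exit sites, had 8 tested probe sets, 2 with a positive and 6 with a negative difference (median -0.04), and 0 at an unadjusted p below 0.05. Sec16a, the scaffold of exit sites, ranged from 9.13 to 9.34 with a median of 9.19 in learning rats, against 9.18 to 9.86 with a median of 9.31 in control rats. The difference was -0.16 ± 0.09 (SE; adjusted p = 0.445 in limma), and it was -0.09 without control replicate 2, the array at 9.86. In another setting that kept all arrays it was larger, at -0.23. Over the other settings and with single arrays left out, the unadjusted p of Sec16a in limma ran from 0.0441 to 0.151. Of the cargo-binding Sec24 subunits, Sec24b differed by 0.16 ± 0.09 (SE; 6.60 ± 0.20 in learning rats and 6.44 ± 0.17 in control rats, SD, n = 7 each), Sec24c by -0.08 and Sec24d by -0.07. The outer coat subunit Sec13 differed by 0.17 with a standard error of 0.16. Its partner Sec31a differed by -0.0057, the inner coat subunit Sec23b by -0.0043, and Sec22b, a SNARE of ER-Golgi carriers grouped here with the coat, by -0.12.

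The p24 proteins had 9 tested probe sets, 4 higher and 5 lower, and 0 had an unadjusted p below 0.05. Tmed7 averaged 8.77 ± 0.18 in learning rats and 8.97 ± 0.23 in control rats (SD, n = 7 each), a difference of -0.20 ± 0.10 (SE; adjusted p = 0.434 in limma). Tmed2, the p24 beta subunit, differed by -0.24 ± 0.16 and -0.13 ± 0.12 on its probe sets (SE). Both values leaned on learning replicate 5, which stood at 7.84 and 9.29 while the other learning arrays began at 8.73 and 10.01. Without that array the differences were -0.10 and -0.0084. Tmed10, the p24 delta subunit that pairs with Tmed2, differed by 0.0053 ± 0.11 (SE). Tmed9 differed by -0.02, Tmed3 by -0.0037, Tmed8 by 0.14 and Tmed4 by 0.06 and 0.08.

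COPI, the coat of retrieval from the Golgi, had 6 of its 8 tested probe sets higher in learning rats (median difference 0.07). Of the 8, 1 had an unadjusted p below 0.05 (12.5%, against 13.1% of all tested probe sets). Copa, the alpha subunit of the outer layer, ranged from 10.20 to 10.34 with a median of 10.25 in learning rats, against 9.93 to 10.20 with a median of 10.17 in control rats. The groups did not overlap, although the lowest learning array at 10.204 lay just above the highest control array at 10.198. The difference was 0.14 ± 0.05 (SE; a ratio of 1.10; adjusted p = 0.258 in limma). Copb1, the beta subunit of the inner layer, ranged from 7.67 to 7.84 with a median of 7.70 in learning rats, against 7.48 to 7.75 with a median of 7.60 in control rats, a difference of 0.11 ± 0.05 (SE; adjusted p = 0.420 in limma). Copb2, the partner of Copa in the outer layer, differed by 0.06, Copz1 by 0.08 and Copg2 by 0.23 with a standard error of 0.13. Cope differed by -0.07, and the probe sets of Copg1 by 0.04 and -0.05.

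The Arf GTPases, which recruit COPI and other coats, showed small differences. All 8 tested probe sets had differences between -0.05 and 0.08, 7 of them positive, and 0 had an unadjusted p below 0.05. Arf1, the main Golgi Arf, averaged 12.09 ± 0.13 in learning rats and 12.01 ± 0.13 in control rats (SD, n = 7 each), with an interval of the difference from -0.07 to 0.22, and its second probe set differed by 0.03. Arf3, its close relative, had probe sets at -0.05, with an interval from -0.18 to 0.08, and at 0.02, the second of which ran from -0.02 to 0.08 with single arrays left out. Arf5 averaged 8.55 ± 0.23 in learning rats and 8.47 ± 0.11 in control rats (SD, n = 7 each). Arf2 differed by 0.04 and Arf4 by 0.02. Arf6, which works at the plasma membrane and not at the Golgi, differed by 0.0016 ± 0.07 (SE).

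Rab GTPases made up 56 of the 137 probe sets and 40 of the 102 genes. Of their 47 tested probe sets, 24 had a positive and 23 a negative difference (median 0.0004). An unadjusted p below 0.05 was seen for 5 (10.6%, against 13.1% of all tested probe sets), 4 of them higher. Their median absolute difference of 0.13 was above the 0.08 of all tested probe sets, a difference that was not tested.

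Rabs of the ER and Golgi gave 11 tested probe sets, 7 higher and 4 lower, with 0 at an unadjusted p below 0.05. Rab6a, the Golgi Rab of retrograde transport, ranged from 11.83 to 12.19 with a median of 12.06 in learning rats, against 11.77 to 12.01 with a median of 11.88 in control rats. It differed by 0.13 ± 0.06 (SE; adjusted p = 0.389 in limma), while a second probe set differed by 0.02 and by -0.0077 without learning replicate 1. Rab6b, its neuronal relative, differed by 0.08. Rab2b, which acts at the ER-Golgi intermediate compartment, averaged 7.58 ± 0.17 in learning rats and 7.40 ± 0.24 in control rats (SD, n = 7 each). Its other probe set differed by -0.04, and by 0.0091 without control replicate 1. Rab1a and Rab1b, which act between ER and Golgi, differed by -0.09 and -0.03, Rab2a by 0.0004, Rab18 of lipid droplets and ER by 0.03, Rab33b by 0.13 and Rab34 by -0.12.

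The Rab8 relatives and other Rabs of exocytosis held the largest difference among the members. Their 7 tested probe sets split into 2 higher and 5 lower in learning rats. An unadjusted p below 0.05 was seen for 2 of the 7 (28.6%, against 13.1% of all tested probe sets), 1 in each direction. The difference between these shares was not tested. Rab10, which delivers membrane proteins to the surface and acts in axon growth, ranged from 9.83 to 10.86 with a median of 9.96 in learning rats, against 9.03 to 9.98 with a median of 9.92 in control rats. The medians are thus close, and the difference of 0.50 ± 0.18 (SE; adjusted p = 0.273 in limma) came from some arrays of each group. Learning replicates 5, 6 and 7 were high at 10.26, 10.35 and 10.86, and control replicates 2, 3 and 5 were low at 9.63, 9.03 and 9.27. A second Rab10 probe set averaged 7.73 ± 0.21 in learning rats and 7.51 ± 0.31 in control rats (SD, n = 7 each), a difference of 0.22 ± 0.13 (SE) that was 0.13 without control replicate 3, the lowest array at 6.96. Rab12 was grouped here although it routes the transferrin receptor to lysosomes. It ranged from 7.43 to 7.93 with a median of 7.74 in learning rats, against 7.81 to 8.07 with a median of 7.86 in control rats. Its difference was -0.17 ± 0.07 (SE; adjusted p = 0.344 in limma), and -0.14 ± 0.09 (SE) on its second probe set. Rab8a and Rab8b, which drive membrane towards the plasma membrane and cilia, differed by -0.04 and -0.17, and Rab26, found on synaptic vesicles, by -0.21 with a standard error of 0.15.

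Early and recycling endosomes, where surface receptors are sorted, had the most tested probe sets, 21, with 10 higher and 11 lower and 0 at an unadjusted p below 0.05. Rab31 averaged 8.29 ± 0.20 in learning rats and 8.43 ± 0.08 in control rats (SD, n = 7 each), a difference of -0.15 ± 0.08 (SE; adjusted p = 0.455 in limma). Rab15, an endosomal Rab of neurons, differed by 0.11 ± 0.06 (SE; adjusted p = 0.475 in limma). The Rab5 paralogs of early endosomes did not share a sign. Rab5a differed by -0.14 and -0.11 on its probe sets, Rab5b by 0.11 and -0.03, and Rab5c by 0.07. Of the Rab11 paralogs of recycling endosomes, Rab11a differed by 0.13 and 0.10, and Rab11b by 0.18 and -0.16. Rab4a, of fast recycling, differed by -0.18 with a standard error of 0.13, and Rab4b by -0.0089. Rab14, which acts between Golgi and endosomes, had probe sets at -0.16 ± 0.09, -0.16 ± 0.17, 0.40 ± 0.32 and 0.04 ± 0.17 (SE). Leaving out control replicate 1 turned the last of these to -0.06, leaving out control replicate 2 to -0.05 and leaving out learning replicate 2 to -0.03. Rab22a had -0.16 and 0.08, Rab13 had 0.05 and Rab35 -0.02.

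Late endosomal, lysosomal and autophagic Rabs had 5 tested probe sets, 4 of them higher in learning rats, with a median difference of 0.14. An unadjusted p below 0.05 was seen for 2 of the 5 (40%, against 13.1% of all tested probe sets), both higher. The difference between these shares was not tested. The 5 leave out Rab12, lower on both of its probe sets, which was counted with the Rabs of exocytosis. Rab24, a Rab of autophagosomes, ranged from 8.46 to 8.85 with a median of 8.77 in learning rats, against 8.25 to 8.52 with a median of 8.45 in control rats. Learning replicates 1 and 2 lay within the control range and the other learning arrays above it. The difference was 0.29 ± 0.08 (SE; a ratio of 1.22; adjusted p = 0.210 in limma). Rab29, a Golgi and lysosome Rab that binds the kinase LRRK2, ranged from 7.21 to 7.44 with a median of 7.29 in learning rats, against 7.00 to 7.28 with a median of 7.06 in control rats. All control arrays but 1 lay below every learning array, and the difference was 0.19 ± 0.05 (SE; adjusted p = 0.212 in limma). Rab9a, which serves transport from late endosomes to the Golgi, differed by 0.14 with a standard error of 0.11. Rab7a, the main Rab of late endosomes, showed little difference. One of its probe sets averaged 10.37 ± 0.14 in learning rats and 10.37 ± 0.09 in control rats (SD, n = 7 each), and the 95% confidence interval of the difference ran from -0.14 to 0.13. The other differed by 0.07, with an interval from -0.20 to 0.33. Both signs changed with single arrays left out. The first ran from -0.02 to 0.05, the highest without learning replicate 2, and the second was -0.0065 without learning replicate 7.

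Of the remaining Rabs, Rab28, known from cilia and photoreceptors, ranged from 10.12 to 10.49 with a median of 10.33 in learning rats, against 9.85 to 10.23 with a median of 10.14 in control rats. The difference was 0.20 ± 0.07 (SE; adjusted p = 0.264 in limma). Rab23, a negative regulator of Hedgehog signalling, averaged 5.81 ± 0.11 in learning rats and 5.99 ± 0.34 in control rats (SD, n = 7 each), a difference of -0.19 ± 0.12 (SE) that was -0.09 without control replicate 2, the highest array at 6.56. Rab40c differed by -0.09.

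Among the genes that share only the letters, Srpk2, a kinase of SR splicing factors in the nucleus and cytosol, had the second smallest p of all members. It ranged from 8.21 to 8.53 with a median of 8.34 in learning rats, against 8.46 to 8.86 with a median of 8.68 in control rats. The difference was -0.31 ± 0.07 (SE; adjusted p = 0.153 in limma), but a second probe set differed by 0.08 ± 0.08 (SE). Its relative Srpk1 averaged 7.51 ± 0.14 in learning rats and 7.61 ± 0.12 in control rats (SD, n = 7 each). Sec14l1, a lipid-binding protein, differed by -0.06, Sec14l2 by 0.12 and 0.03, and Ssrp1, a subunit of the histone chaperone FACT, by 0.08. In another setting that kept all arrays, Sec14l1 was at -0.17. Over the other settings and with single arrays left out, its unadjusted p in limma ran from 0.0201 to 0.573.

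Genes with several probe sets showed how far a single probe set can be read. Of the 23 member genes with more than 1 tested probe set, 13 (56.5%) had probe sets of opposite sign, and over all genes the count was 476 of 922 (51.6%). Rab10, Rab12, Sec63, Tmed2, Arf1, Rab11a, Rab5a, Rab6a, Tmed4 and Sec14l2 were the 10 with one sign. Over all genes, 45 had at least 2 probe sets at an unadjusted p below 0.05, and in 15 of these both signs occurred; Sec62 was the only such gene among the members. In the same within-array measure as for Sec62, the second Srpk2 probe set minus the one described above averaged 0.80 ± 0.19 in learning rats and 0.40 ± 0.18 in control rats (SD, n = 7 each). For Srp72 the same measure, between the probe sets of most opposed sign, was 1.17 ± 0.32 in learning rats and 0.67 ± 0.41 in control rats (SD, n = 7 each). The stretch of transcript that each probe set matches was not analysed here.

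**Figure D3:**
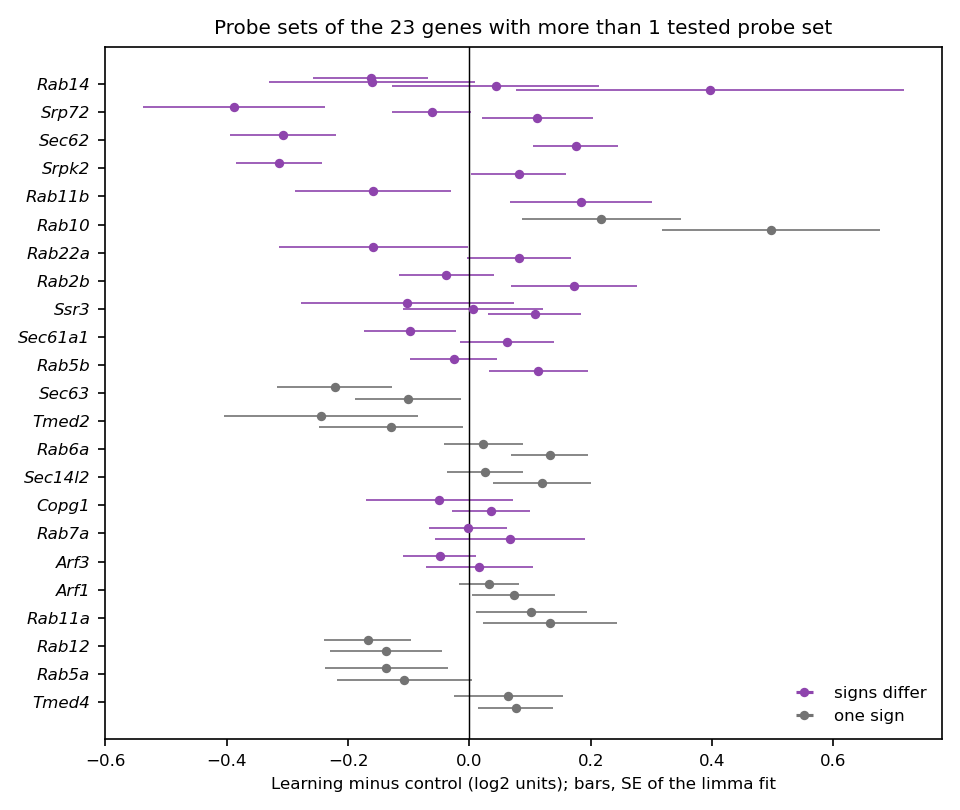
Learning minus control in log2 units (horizontal axis) for every tested probe set of the 23 genes with more than 1, ordered from the widest to the narrowest spread between probe sets; bars are standard errors of the limma fit. Genes whose probe sets differ in sign, 13 of 23, are drawn in purple, with Rab14, Srp72, Sec62 and Srpk2 at the top.

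A list of 65 other genes of the pathway, mainly exchange factors, activating proteins, tethers, SNAREs and partners of the translocon, was read in the same way. Of them, 54 had a single-symbol probe set, and 60 of their 70 probe sets were tested. They split into 32 positive and 28 negative differences, and 0 passed the adjusted threshold. An unadjusted p below 0.05 was seen for 8 (13.3%, against 13.1% of all tested probe sets), 3 higher and 5 lower. Tram1, a translocon protein that helps nascent chains enter the membrane, ranged from 9.91 to 10.21 with a median of 10.03 in learning rats, against 9.58 to 9.93 with a median of 9.86 in control rats. It differed by 0.25 ± 0.07 (SE; adjusted p = 0.209 in limma). Gdi2, which keeps Rabs soluble in their GDP form, differed by 0.23 ± 0.07 (SE; adjusted p = 0.241 in limma). Its second probe set differed by -0.05, and by 0.0054 without learning replicate 5. Rabggtb, the beta subunit of the enzyme that adds the lipid anchor to Rabs, averaged 8.07 ± 0.11 in learning rats and 8.28 ± 0.14 in control rats (SD, n = 7 each). The difference was -0.21 ± 0.07 (SE; adjusted p = 0.241 in limma). Gosr1, a SNARE of the Golgi, had a difference of -0.34 ± 0.11 (SE; adjusted p = 0.242 in limma), against -0.13 on its second probe set.

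Markers of dentate and other cells were compared as means over the tested genes of each list, by two-sided exact permutation tests, adjusted over 10 lists. Prox1, which defines granule cells, was at 10.33 ± 0.17 in learning rats and 10.26 ± 0.25 in control rats (SD, n = 7 each). The granule cell list (3 of 6 listed genes tested; Prox1 and Dsp higher in learning rats, Calb1 lower) ranged from 9.13 to 9.38 in learning rats and from 8.99 to 9.23 in control rats, a difference of 0.16 (exact p = 0.00583, adjusted 0.0583). Within it, Dsp differed by 0.44 and Calb1 by -0.03. The CA1 list, from the neighbouring hippocampal field (4 of 7; Lmo3, Wfs1 and Fibcd1 higher in learning rats, Itpka lower), ranged from 7.31 to 7.74 in learning rats and from 6.81 to 7.76 in control rats, a difference of 0.30 (exact p = 0.0355, adjusted 0.163). The microglial list (6 of 6; 1 higher, 5 lower) ranged from 7.36 to 7.53 in learning rats and from 7.29 to 7.88 in control rats, a difference of -0.17 (exact p = 0.0490, adjusted 0.163). The choroid plexus list (4 of 7; 1 higher, 3 lower), whose tissue secretes Ttr, ranged from 5.42 to 6.67 in learning rats and from 5.57 to 7.26 in control rats, a difference of -0.59 (exact p = 0.0734, adjusted 0.184). The meningeal list (7 of 8; 1 higher, 6 lower) ranged from 4.97 to 7.87 in learning rats and from 5.17 to 7.85 in control rats, a difference of -0.32 (exact p = 0.597, adjusted 0.849). The lists of CA3, astrocytes, oligodendrocytes, endothelium and interneurons differed by at most 0.03, with adjusted p values of at least 0.849.

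With the CA1 marker mean of each array as a covariate, Spcs3 was at 0.26, Rab24 at 0.25, Rab29 at 0.16, Copa at 0.17, Sec62 at -0.33 and 0.19, and Rab10 at 0.51. Rab28 at 0.16, Rab12 at -0.17, Sec63 at -0.19, the second Sec62 probe set, Rabggtb at -0.16 and Gosr1 at -0.12 then no longer had an unadjusted p below 0.05. Other members gained such a p, and the members with one still numbered 7 higher and 7 lower. The share over all tested probe sets fell to 9.89% (928 of 9387), so the unchanged 12.1% of members now lay above it and not below. Whether the shares differed was not tested. With the meningeal mean instead, Spcs3 was at 0.30 and Rab10 at 0.43. The part of granule cell, microglial or choroid plexus content in these differences was not tested.

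**Figure D4:**
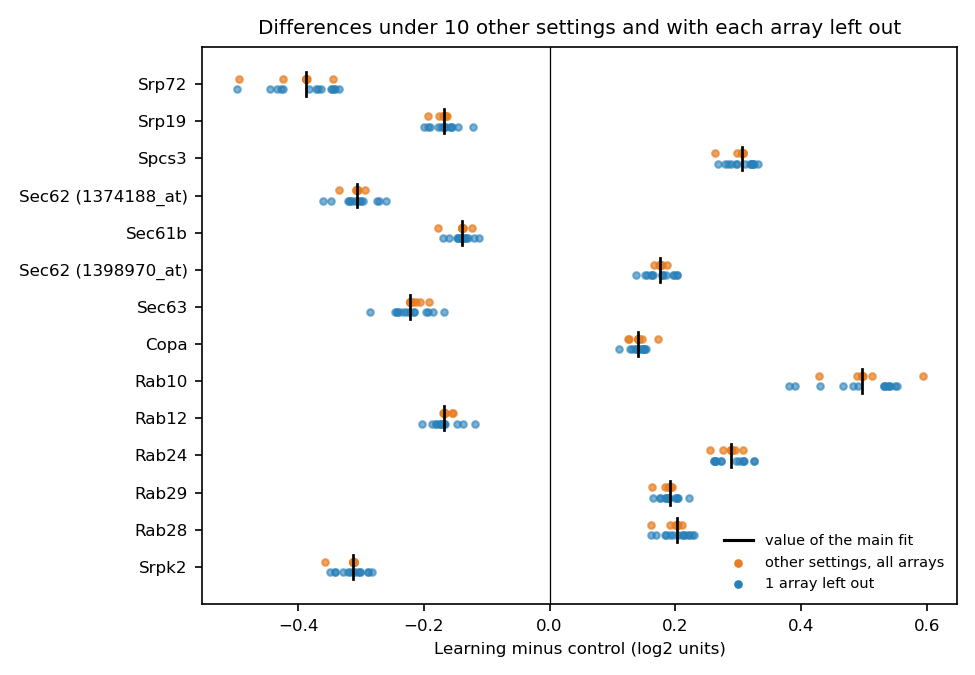
Learning minus control in log2 units (horizontal axis) for the 14 probe sets with an unadjusted p below 0.05, under 10 other settings (orange) and with each of the 14 arrays left out (blue); black lines are the values given in the text. All values of a probe set lie on the same side of 0, and Rab10 has the widest range, from 0.38 to 0.59.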

How the data were processed

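The authors deposited 1 log2 value per probe set and array, computed with GCRMA per the submitters' processing notes (version not given in the sources used here). This method corrects background from probe sequence and normalizes between arrays. Array medians ran from 5.09 to 5.12, and pairs of arrays correlated at 0.995 to 0.998. The number of arrays limits the precision.

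Groups came from the sample titles. Members were probe sets with 1 gene symbol in the platform annotation, all 137 of which matched the current gene table of GRCr8. Members, steps and lists were chosen with earlier results of these data known. Probe sets whose mean reached 4 were tested with limma 3.58.1 in R 4.3.3 (lmFit, eBayes, no covariate), with Benjamini-Hochberg adjustment over all 9387, after a check on simulated data. The genes named were, for each step, the 2 of smallest p, that of highest mean and all with an unadjusted p below 0.05 or no overlap, with 4 of the other pathway genes. Genes given with a difference alone fall outside that rule. The titles do not say whether the replicate numbers pair the rats, and the main fit did not pair them. The deviations of same-numbered arrays correlated at -0.28 to 0.26, and 4 of 7 pairs were over 0.1. For 2 of the 7 learning arrays the best-matched control array had the same number. Such correlations cannot decide whether rats were paired or shared a batch. The alternatives were 10 other settings of filter, normalization, prior, weights, block and covariate, and each of 14 arrays left out. Figures were drawn with matplotlib 3.10.9.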

Additional observations from a re-analysis of the deposited data

Results flagged for a closer look

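Among the 48 member probe sets of the 32 member genes named by rule, the 96 groups of 7 arrays were examined for an array that stood far from the rest, and 10 had one, where chance gives about 1 in 20. The gap to the nearest array had to exceed Dixon's 95% critical value, as a share of the range of the group. Tmed2 was lowest in learning replicate 5 on both probe sets, at 7.84 (next array 8.73) and at 9.29 (next array 10.01). Learning replicate 2 was lowest for a Rab7a probe set at 10.09 (next 10.32) and for Srpk1 at 7.21 (next 7.50). Control arrays that stood apart were replicate 1 for Copa at 9.93 (next 10.09), replicate 2 for Sec16a at 9.86 (next 9.46), replicate 4 for Rab12 at 8.07 (next 7.89), replicate 5 for Rab15 at 8.40 (next 8.26), replicate 6 for Arf3 at 10.88 (next 10.62) and replicate 7 for Rab6a at 9.31 (next 9.06).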

How the results depend on the processing

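The count of members past the adjusted threshold was 0 under all alternatives run. Members at an unadjusted p below 0.05 numbered 7 to 10 higher in learning rats and 6 to 9 lower. The share over all tested probe sets moved as well, from 9.30% without the filter on low values to 14.96% with array weights. With the CA1 mean as covariate that share lay below the share of members, as given above. It also lay below in other settings. Without the filter on low values, 9 members were higher and 8 lower, of 137. Without control replicate 2, 8 were higher and 6 lower, of 116, against 10.06% of all tested probe sets. In further settings it lay above, as in the main fit, and whether the shares differed was not tested. With single arrays left out, the count over all probe sets past the adjusted threshold was 0 or 1 (1 without control replicate 6, learning replicate 1 or learning replicate 4), and the median difference of the members ran from -0.0078 to 0.0136. It was 0.0152 with the CA1 marker mean as covariate. The replicate number as a replicate block gave 9 members higher and 7 lower at an unadjusted p below 0.05, and 0 past the adjusted threshold. Sec61b then no longer had such a p. With single arrays left out, the unadjusted p was not below 0.05 in 6 of 14 fits for Sec63 (without control replicate 2, 3 or 4 or learning replicate 3, 5 or 6), in 3 for Rab12 (control replicate 4, learning replicates 1 and 5), in 3 for the second Sec62 probe set (control replicate 1, learning replicates 2 and 7), in 2 for Srp19 (control replicate 5, learning replicate 7) and in 1 for Sec61b (control replicate 5). For the other 9 members it stayed below in all 14. Besides those given above, some larger differences without such a p moved by over 1.5 times with single arrays left out. With the farthest values of these fits, they were Srpk1 (-0.06 without learning replicate 2), Rab15 (0.07 without learning replicate 4), Rab14 (0.21 without learning replicate 7 and -0.05 without learning replicate 5, on separate probe sets) and Rab2b (0.11 without control replicate 5). So did the second probe sets of Rab12 (-0.08 without learning replicate 7), Srp72 (0.06 without control replicate 4), Sec63 (-0.06 without learning replicate 6) and Gosr1 (-0.06 without control replicate 6 and -0.21 without learning replicate 1). With all arrays kept, the same Rab2b probe set reached 0.29 in a setting. Its unadjusted p in limma ran from 0.0307 to 0.261 over all alternatives. The second Gosr1 probe set was at -0.0049 with the CA1 mean as covariate. Counting Rab names with any ending gave 7 and 7. Of 1293 values of the 54 named probe sets under the alternatives, 1272 had the sign of the reported value. The 21 that reversed belonged to 7 probe sets whose differences were within 0.07 of 0. With all arrays kept, these were the Rab7a probe set near 0 (0.0127 with array weights, 0.0459 with the CA1 mean and 0.0013 with the meningeal mean as covariate) and the second Gdi2 probe set (0.0027 with the CA1 mean). With single arrays left out, one probe set each of Arf3 ran from -0.0232 to 0.0780, of Rab14 from -0.0561 to 0.14, of Rab2b from -0.0724 to 0.0091, of Rab6a from -0.0077 to 0.0653 and of Gdi2 from -0.0870 to 0.0054, and both of Rab7a, from -0.0214 to 0.0451 and from -0.0065 to 0.12. The cause was not tested. Quantile normalization and median centring moved the median over all probe sets by -0.0003 and 0.0021.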
